A study of Mus musculus with 6 samples.

Results

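The proteins that coat lipid droplets and shape their growth were examined through 10 genes: the CIDE proteins Cidec and Cidea, the perilipins Plin1 to Plin5, the FITM proteins Fitm1 and Fitm2, and the droplet-bound enzyme Hsd17b13. They were chosen by the gene symbol of the array's annotation, and 11 of the 41345 probe sets name a member. Only Fitm1 has more than 1 of them, and the one with the highest mean over the 6 arrays stood for it, so that 10 of the 22180 genes measured are described. Total RNA from mouse liver was hybridised to 1 array per animal, 3 from mice given AAV-CREB-H-ΔTC and 3 from mice given AAV-GFP. AAV, an adeno-associated virus, was a type that targets the liver, CREB-H-ΔTC is the active form of CREB-H, and GFP is green fluorescent protein. All 6 mice, the GFP controls included, were CREB-H KO animals that carry the targeted allele Creb3l3tm1.1Sad/J of Creb3l3, the gene of CREB-H, and were 8 weeks of age on a normal diet. Livers were taken 2 weeks after the intraperitoneal injection. The sources used here do not name the promoter that drives the vector. The values are log2 signals, on which a difference of 1 is a doubling.

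A lipid droplet is a core of triglyceride and sterol ester inside a single layer of phospholipid, formed at the endoplasmic reticulum, where FITM proteins take part in its budding. Perilipins cover its surface and control the access of lipases. CIDE proteins gather where droplets touch and pass lipid from the smaller droplet to the larger. CREB-H is a transcription factor of the endoplasmic reticulum membrane that is active in hepatocytes after cleavage, and Cidec is among its reported targets in mouse liver.

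Signals ran from 1.42 to 13.87 and array medians from 4.98 to 5.01. Genes of the Y chromosome (Uty, Kdm5d and Eif2s3y) were high on replicate 3 of both groups (means of 7.67 with CREB-H and 7.83 with GFP), against 3.15 to 3.39 on the other 4 arrays, and the labels give no sex. Alb, the hepatocyte marker albumin, lay between 13.76 and 13.87 on all 6 arrays. Creb3l3 read 6.73, 7.25 and 7.58 on the CREB-H arrays, against 6.55, 5.93 and 6.40 on the GFP arrays. Its groups did not overlap, and the log2 difference of 0.89 (SE 0.25) did not pass the test over all probe sets (limma adjusted p = 0.647). Of the 22180 genes, 2 passed that test at an adjusted p below 0.05, which is 0.00902%.

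None of the 10 members passed, so the values that follow describe the 6 livers. Cidec had by far the largest difference of the 10, and Plin2 was the member with the lowest difference. Only in these 2 of the 10 the groups did not overlap, Cidec with CREB-H above and Plin2 with CREB-H below. Over all genes, groups did not overlap in 6.25% with CREB-H above and in 6.01% with CREB-H below, and 1 member of 10 on each side is not a result about the members. At an unadjusted p below 0.05 there was likewise 1 member higher and 1 lower, against 3.29% of all genes higher and 2.43% lower. Of the 10 members 3 had a higher mean with CREB-H and 7 a lower one, with a median log2 difference of -0.15 beside 0.00 over all genes.

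**Figure D1:**
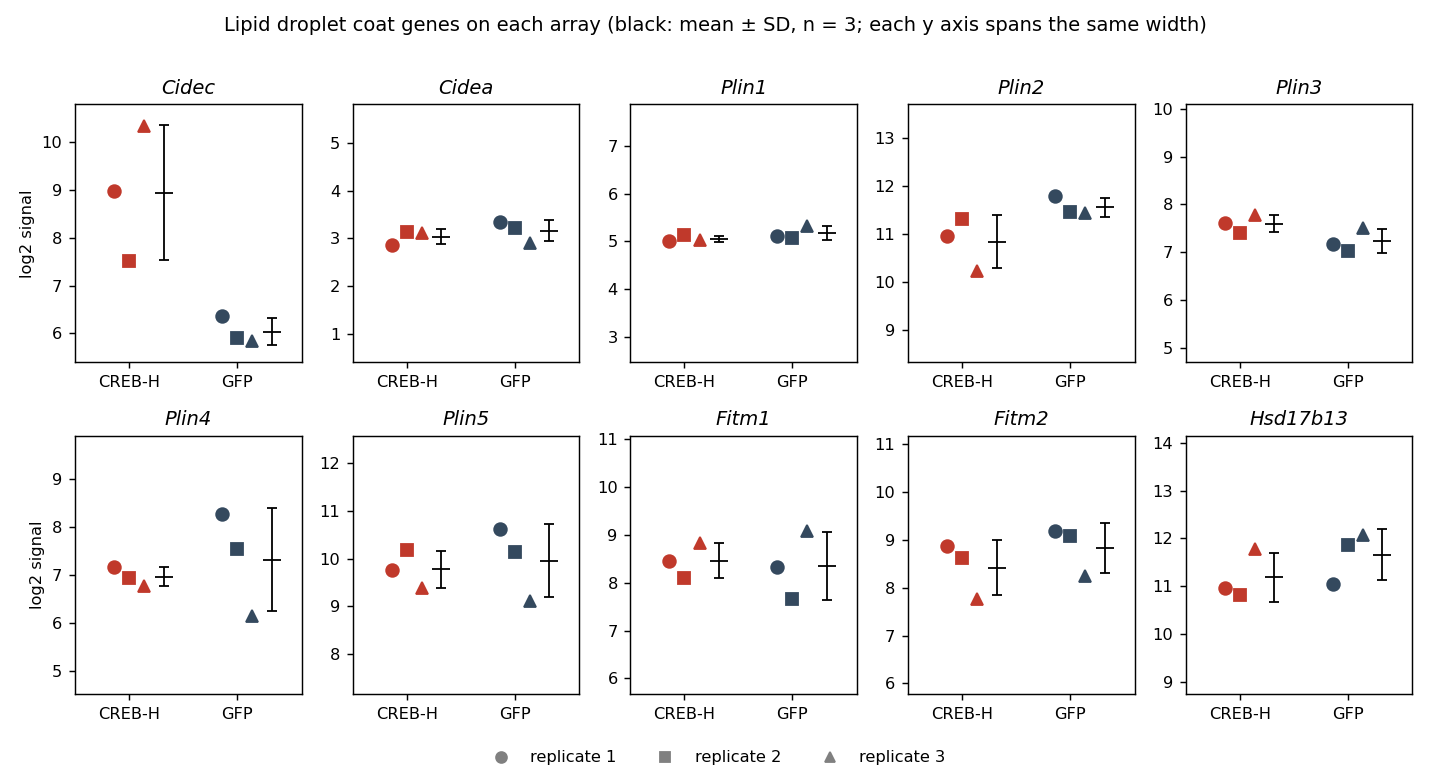
The log2 signal of the 10 members on each array, with CREB-H arrays on the left (red) and GFP arrays on the right (dark) of each panel, symbols for the replicate number, and the mean ± SD of 3 arrays in black. The 3 CREB-H arrays lie above all GFP arrays for Cidec, with a spread from 7.50 to 10.34, and below all of them for Plin2.

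Cidec (probe set 17469754, Entrez 14311), also named Fsp27, promotes the fusion and growth of droplets. Its signal was 8.98, 7.50 and 10.34 on the CREB-H arrays, against 6.37, 5.90 and 5.84 on the GFP arrays. Every CREB-H array exceeded every GFP array, by at least 1.14 log2 units, and the 3 CREB-H arrays lay far apart from one another. The means were 8.94 ± 1.42 with CREB-H and 6.03 ± 0.29 with GFP (SD, n = 3 each). The log2 difference of 2.91 (SE 0.65) is a 7.50-fold ratio of CREB-H to GFP with a 95% interval of 2.59 to 21.7. By size, and by signed value, it ranked 3 among the 22180 genes, but by unadjusted p it ranked 73, and the limma adjusted p over all probe sets was 0.613. An exact permutation test over the arrays (two-sided) gave p = 0.1, and 3 against 3 arrays cannot give a smaller value. In whole liver, a change in the number of cells of a type and a change in RNA per cell cannot be told apart.

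The spread of Cidec within the CREB-H group was itself large. Its SD there was above that of 99.8% of genes, while its SD among GFP arrays was above that of 85.2%. The highest CREB-H array, replicate 3, is the one with Y-linked signal. Between the replicate 3 arrays the difference was 4.495, and among the other 4 arrays it was 2.11. An interaction term for Y-linked signal gave 2.38 (SE 0.89) for the gap between those values, with a limma adjusted p of 0.717. That term has 1 array per group on the side with Y-linked signal and takes its within-group spread from the other 4 arrays, so a p above the threshold does not show that the sides are alike, for Cidec or for the other members. Within the CREB-H group Creb3l3 was highest on replicate 3, next on replicate 2 and lowest on replicate 1, and Cidec was highest on replicate 3, next on replicate 1 and lowest on replicate 2. A relation between the signals of these genes was not tested. Leaving out any 1 array gave differences of Cidec of 2.21 to 3.63, with a limma adjusted p of 0.274 or more.

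RefSeq annotates separate starts for mouse Cidec, and a liver form, Fsp27β, is known to begin at a start of its own. The sources used here do not say which transcript the probe set reads, and the forms were not separated. Both promoter windows are shown because the difference of Cidec is the largest of the list. They lie on the minus strand of GRCm38.p6 at chr6:113435711-113436010 and chr6:113434715-113435014, each from 250 bases before to 50 bases after a transcript start, and run 5′ to 3′ on the gene's strand. Capitals mark matches, on either strand, to the motifs searched: TGACGTCA (the cAMP response element), TGACG (its core, also counted within it), CCACG (part of the stress elements bound by related factors), AGGTCA (a core bound by nuclear receptors) and the DR1 element, in which AGGTCA stands 2 times with 1 base between.
Cidec, first start: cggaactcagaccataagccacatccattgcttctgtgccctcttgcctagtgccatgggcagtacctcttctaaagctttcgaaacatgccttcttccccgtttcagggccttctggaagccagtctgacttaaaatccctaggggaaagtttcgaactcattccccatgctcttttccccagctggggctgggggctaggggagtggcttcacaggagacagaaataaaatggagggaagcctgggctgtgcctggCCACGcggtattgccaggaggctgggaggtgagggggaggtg
Cidec, other start: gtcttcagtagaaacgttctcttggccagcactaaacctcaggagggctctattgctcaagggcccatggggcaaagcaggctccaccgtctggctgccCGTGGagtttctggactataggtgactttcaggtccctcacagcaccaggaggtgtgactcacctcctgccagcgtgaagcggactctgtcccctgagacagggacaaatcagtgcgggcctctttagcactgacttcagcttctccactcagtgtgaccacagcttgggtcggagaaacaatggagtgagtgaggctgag
The first window held CCACG once, on the plus strand of the printed sequence 8 bases after the start, and the other held it once on the opposite strand, 151 bases before the start, each counted to the first printed base of the match. CCACG occurs in 32.8% of the 32851 promoter windows of the table, so a match is common. Neither window held TGACG or AGGTCA. A match is a description of letters and no evidence of binding.

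Over the 11 windows of the 9 members that the table holds, CCACG was found in 5 (Cidec, Plin2, Plin3 and Plin5). TGACG was found in 2, of Fitm1 and Hsd17b13, beside 20.8% of all windows, and AGGTCA in 4, of Hsd17b13, Plin2 and Plin5, beside 16.3%. No window of a member held TGACGTCA, which 1.79% of all windows have, or the DR1 element, which 0.0396% have.

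Cidea (probe set 17351457, Entrez 12683), the CIDE protein of brown fat, gave a low signal on all arrays. It read 2.87, 3.14 and 3.11 with CREB-H, against 3.34, 3.22 and 2.91 with GFP, and the groups overlapped. The log2 difference was -0.12 (SE 0.15), with a 95% interval of -0.47 to 0.23 and a limma adjusted p of 0.916. An increase of the size seen in Cidec lies outside that interval, although no detection call exists for a signal this low and small changes could be understated. The change of Cidec minus that of Cidea was 3.02 on the log2 scale. Against each of the other 9 members the excess of Cidec ran from 2.55 (Plin3) to 3.63 (Plin2), and the within-array values did not overlap between the groups for any of them (exact permutation p = 0.1 each, the smallest possible). The same held for 99.3% of all genes set against Cidec, so it says nothing particular of these 9.

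**Figure D2:**
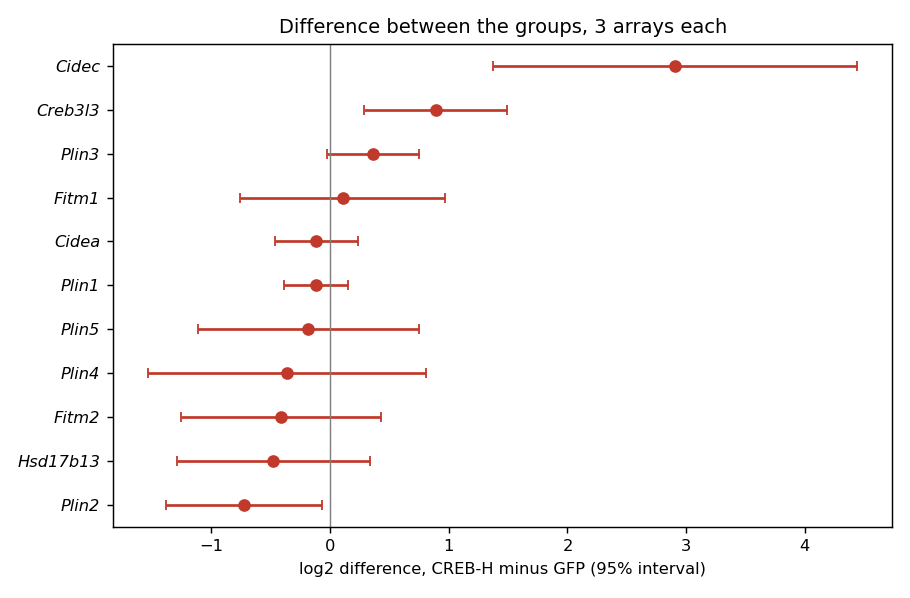
Log2 difference of CREB-H minus GFP for the 10 members and Creb3l3, with 95% intervals from the limma fit. The interval of Cidec runs from 1.37 to 4.44, while those of 8 members span 0.

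Plin2 (probe set 17426981, Entrez 11520) is the main perilipin of hepatocytes and coats droplets in nearly all cells. Its signal was 10.96, 11.32 and 10.23 on the CREB-H arrays, against 11.79, 11.45 and 11.43 on the GFP arrays. All CREB-H arrays were below all GFP arrays, but the gap between CREB-H replicate 2 and GFP replicate 3 was only 0.11. The means were 10.84 ± 0.55 with CREB-H and 11.56 ± 0.20 with GFP (SD, n = 3 each). The log2 difference of -0.72 (SE 0.28) is a ratio of 0.606 with a 95% interval of 0.385 to 0.955, and it did not pass (limma adjusted p = 0.704, exact permutation p = 0.1, the smallest possible). It ranked 79 among the 22180 genes from the lowest difference up. CREB-H replicate 3, which had the highest Cidec signal, had the lowest Plin2 signal, and without that array the difference was -0.42. Between the replicate 3 arrays it was -1.20 and among the other 4 it was -0.48, with an interaction of -0.72 (SE 0.34, limma adjusted p = 0.765).

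The promoter window of Plin2 is shown because it is the member that stood lowest relative to GFP. It lies on the minus strand at chr4:86670010-86670309 of GRCm38.p6 and is printed in the same way.
Plin2: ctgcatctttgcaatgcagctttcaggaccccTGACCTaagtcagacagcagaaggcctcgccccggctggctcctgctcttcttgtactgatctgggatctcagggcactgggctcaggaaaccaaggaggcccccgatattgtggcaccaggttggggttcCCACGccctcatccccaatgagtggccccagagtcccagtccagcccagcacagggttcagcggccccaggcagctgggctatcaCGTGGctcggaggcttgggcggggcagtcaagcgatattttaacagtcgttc
It held CCACG on the plus strand of the printed sequence 87 bases before the start and on the opposite strand across the start, from 2 bases before it, and AGGTCA on the opposite strand 218 bases before the start.

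Plin1 (probe set 17492406, Entrez 103968) is the perilipin of adipocytes, where it holds back lipolysis. It read 5.01, 5.13 and 5.03 with CREB-H, against 5.12, 5.07 and 5.33 with GFP. All 6 arrays lay near the array medians and the groups overlapped, with a log2 difference of -0.12 (SE 0.11, limma adjusted p = 0.891). The 95% interval was -0.39 to 0.15. Plin3 (probe set 17346216, Entrez 66905), which moves between cytosol and young droplets, read 7.60, 7.41 and 7.77 with CREB-H, against 7.18, 7.02 and 7.51 with GFP. The groups overlapped by 0.10, where CREB-H replicate 2 lay below GFP replicate 3. The log2 difference was 0.36 (SE 0.16, 95% interval -0.03 to 0.75, limma adjusted p = 0.751), the highest of the perilipins, and it was 0.25 to 0.50 with any 1 array left out.

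Plin4 and Plin5 are neighbouring genes on chromosome 17. Plin4 (probe set 17346125, Entrez 57435), a perilipin of adipocytes and muscle, read 7.18, 6.93 and 6.78 with CREB-H, against 8.27, 7.55 and 6.15 with GFP. The CREB-H arrays were close together and lay within the wide range of the GFP arrays. Plin5 (probe set 17346136, Entrez 66968), which brings droplets and mitochondria together in tissues that burn fat, read 9.76, 10.18 and 9.39 with CREB-H, against 10.62, 10.14 and 9.11 with GFP. It, too, was highest on GFP replicate 1 and lowest on GFP replicate 3. The GFP SD was 1.08 for Plin4 and 0.77 for Plin5, above that of 99.5% and 98.8% of genes, and the CREB-H SD was 0.20 and 0.39. The log2 differences were -0.36 (SE 0.49, limma adjusted p = 0.924) and -0.18 (SE 0.39, adjusted p = 0.959). Their signs depended on single arrays. Without GFP replicate 1 the differences were 0.11 for Plin4 and 0.15 for Plin5, and without CREB-H replicate 3 that of Plin5 was 0.01. Without GFP replicate 3 they were -0.95 and -0.60. Between the replicate 3 arrays Plin4 differed by 0.62 and Plin5 by 0.28, whereas among the other 4 arrays the differences were -0.85 and -0.41. The interaction with Y-linked signal was 1.48 (SE 0.47, limma adjusted p = 0.697) for Plin4 and 0.69 (SE 0.41, adjusted p = 0.805) for Plin5.

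Fitm1 and Fitm2 are membrane proteins of the endoplasmic reticulum that bind triglyceride, Fitm1 mainly in muscle and Fitm2 in most tissues. Fitm1 (probe set 17300544, Entrez 68680) read 8.45, 8.10 and 8.84 with CREB-H, against 8.32, 7.66 and 9.08 with GFP. In both groups replicate 3 was highest and replicate 2 lowest, and the groups overlapped throughout (log2 difference 0.10, SE 0.36, limma adjusted p = 0.976). It was -0.24 without GFP replicate 2 and -0.08 without CREB-H replicate 3. Its other probe set, 17306692, read between 5.65 and 5.91 on all 6 arrays and differed by 0.005 (SE 0.11). Fitm2 (probe set 17394036, Entrez 228859) read 8.86, 8.62 and 7.77 with CREB-H, against 9.18, 9.08 and 8.24 with GFP. Replicate 3 was lowest in both groups, and the log2 difference was -0.42 (SE 0.35, limma adjusted p = 0.880). Leaving out CREB-H replicate 3 gave -0.09, and leaving out GFP replicate 3 gave -0.71, each of which keeps the low replicate 3 array of 1 group only. Between the replicate 3 arrays Fitm2 differed by -0.47, and among the 4 arrays without Y-linked signal by -0.39.

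Hsd17b13 (probe set 17450354, Entrez 243168) is a liver enzyme of the droplet surface with retinol dehydrogenase activity, and its gene lies beside that of Hsd17b11 in the annotation. It read 10.95, 10.82 and 11.77 with CREB-H, against 11.05, 11.86 and 12.07 with GFP. Replicate 3 was highest in each group, and GFP replicate 1 lay among the CREB-H values. The log2 difference was -0.48 (SE 0.34, 95% interval -1.29 to 0.34, limma adjusted p = 0.853), and leaving out GFP replicate 1 gave -0.78, GFP replicate 3 -0.27.

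The members differed in which arrays were high or low. Plin2, Plin4, Plin5 and Fitm2 were lowest on replicate 3 of both groups, the arrays with Y-linked signal, and Fitm1, Plin3 and Hsd17b13 were highest on them.

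Genes with a pattern like that of Cidec were sought over the 6 arrays among 17969 named genes, by the root mean square distance between log2 values after each gene was centred on its own mean. The 5 nearest were Far2, Cgref1, Aqp4, Osbpl3 and Pgm3, at distances of 0.25, 0.27, 0.31, 0.51 and 0.52, against a median of 1.68 over all those genes. Far2, a fatty acyl-CoA reductase, read 6.78, 4.88 and 8.54 with CREB-H, against 3.97, 3.73 and 3.74 with GFP. Aqp4, a water channel, read 8.37, 6.28 and 9.53 with CREB-H, against 5.29, 5.25 and 5.56 with GFP. Like Cidec, all 5 were highest on CREB-H replicate 3, next on replicate 1 and lowest of the group on replicate 2. The search picked these 5 for likeness, so neither the shared order nor the size of their differences is separate evidence. Their log2 differences were 2.92 (SE 0.81) for Far2, 2.89 (SE 0.73) for Cgref1, 2.69 (SE 0.74) for Aqp4, 2.07 (SE 0.47) for Osbpl3, an oxysterol-binding protein relative, and 1.97 (SE 0.51) for Pgm3, an enzyme of the hexosamine pathway. None passed over all probe sets (limma adjusted p = 0.613 to 0.647). No other member was near by this distance: Plin3, the closest, stood at rank 454 with a distance of 1.48, and Plin2 at rank 17868. The values were not scaled, so a gene with a much smaller change than Cidec lies far from it whatever its order of arrays. Within the CREB-H group Plin3, Fitm1 and Hsd17b13 had the order of Cidec, highest on replicate 3, next on replicate 1 and lowest on replicate 2. Within the GFP group replicate 3 was highest for these members and lowest for Cidec. A relation of their signals to that of Cidec was not tested.

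The 5 genes nearest to Plin2 were Abcd3, Hsdl2, Slc25a42, Nceh1 and Pdzrn3, at distances of 0.12 to 0.15 against a median of 0.52. Abcd3, a transporter of the peroxisome membrane, read 11.93, 12.23 and 11.365 with CREB-H, against 12.58, 12.31 and 12.46 with GFP. Slc25a42, a mitochondrial carrier of coenzyme A, read 9.17, 9.19 and 8.48 with CREB-H, against 9.94, 9.70 and 9.42 with GFP. All 5 were lowest on CREB-H replicate 3. The log2 differences ran from -0.74 (SE 0.23, Slc25a42) to -0.54 (SE 0.24, Nceh1, a hydrolase of sterol esters), and none passed (limma adjusted p = 0.650 to 0.751). These genes were picked for their likeness, so their differences are no separate evidence.

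**Figure D3:**
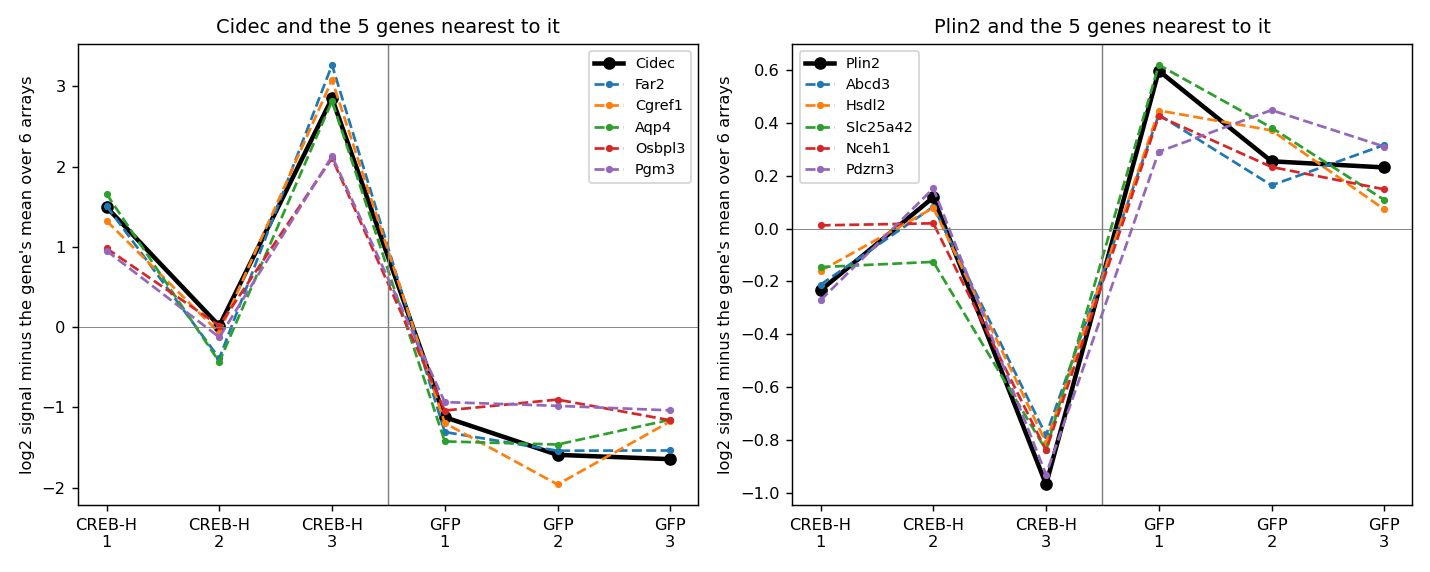
Log2 signal minus each gene's mean over the 6 arrays, for Cidec and its 5 nearest genes (left) and Plin2 and its 5 nearest genes (right), with CREB-H arrays left of the grey line and GFP arrays right of it. The lines only join the values of 1 gene. CREB-H replicate 3 is the highest array for Cidec and its neighbours and the lowest for Plin2 and its neighbours.

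Other genes of the lipid droplet were read from a list of 35, of which 32 were measured. Probe sets of Cideb, the CIDE protein of hepatocytes, and of Acsl3 and Methig1 name further genes as well, and were not used. None of the 32 passed, 10 had a higher and 22 a lower mean with CREB-H, and the median log2 difference was -0.06 against 0.00 over all genes. The groups did not overlap in 5 genes, all lower with CREB-H (Dgat1, Mogat1, Hsd17b11, Ces1d and Mettl7b), beside the 6.01% of all genes given above. The gaps between their groups ran from 0.05 (Mettl7b) to 0.11 (Ces1d). At an unadjusted p below 0.05 there were 3 of the 32 lower and none higher, against 2.43% of all genes lower and 3.29% higher. The 3 were Mogat1 (-0.29, SE 0.11), Agpat2 (-0.52, SE 0.21) and Mettl7b (-0.39, SE 0.16). Of the names in these counts only Mogat1 and Hsd17b11 were fixed by rule, the others being chosen after their values were seen. Mogat1 makes diacylglycerol and Agpat2 phosphatidic acid on the way to triglyceride.

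Pnpla2, Pnpla3, Lipe, Mgll and the lipolysis regulators Abhd5, G0s2 and Hilpda had differences between -0.13 and 0.19. Pnpla2, the main triglyceride lipase of droplets, read 9.51, 9.44 and 9.03 with CREB-H, against 9.74, 9.41 and 9.22 with GFP (log2 difference -0.13, SE 0.19). Its coactivator Abhd5 differed by 0.19 (SE 0.16), its inhibitor G0s2 by -0.01 (SE 0.39), and Hilpda, which also inhibits it, by -0.02 (SE 0.20). Pnpla3 differed by 0.04 (SE 0.12). Dgat2, which completes triglyceride synthesis, differed by 0.08 (SE 0.14), and Bscl2, or seipin, which organises droplet formation, by 0.12 (SE 0.23). Hsd17b11, neighbour and relative of Hsd17b13, read 10.88, 10.76 and 9.86 with CREB-H, against 11.16, 10.997 and 10.96 with GFP. Its groups did not overlap, at a difference of -0.54 (SE 0.27, limma adjusted p = 0.779).

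Transcription factors and cofactors known to act on droplet genes were read from a list of 20. Of the 19 measured, 16 had a higher mean with CREB-H and 3 a lower one, with a median log2 difference of 0.21, and none passed. Over all genes 50.8% had a higher mean and the median was 0.00. At an unadjusted p below 0.05 there were 6 of the 19 higher and 1 lower, against 3.29% of all genes higher and 2.43% lower. The groups did not overlap in 3 higher (Ppara, Srebf1 and Cebpa) and 1 lower (Rxrb), against 6.25% and 6.01% of all genes. Of these 4, Ppara alone was named by rule. The gaps between the groups were small, at 0.04 for Ppara, 0.008 for Srebf1, 0.001 for Cebpa and 0.13 for Rxrb. Pparg, which drives Cidec and Plin1 in adipocytes and Cidec in fatty liver, read 7.60, 6.73 and 7.08 with CREB-H, against 5.85, 5.92 and 6.85 with GFP. GFP replicate 3 lay within the CREB-H range, and the log2 difference was 0.93 (SE 0.33, limma adjusted p = 0.686). Within the CREB-H group Pparg was highest on replicate 1 and Cidec on replicate 3, and both were lowest on replicate 2. A link between Pparg and Cidec was not tested. Ppara, which acts on Plin2, Plin5 and other genes of fat use, read 10.04, 9.73 and 10.12 with CREB-H, against 9.21, 9.12 and 9.68 with GFP. Its groups did not overlap, at a difference of 0.63 (SE 0.19, limma adjusted p = 0.647).

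**Figure D4:**
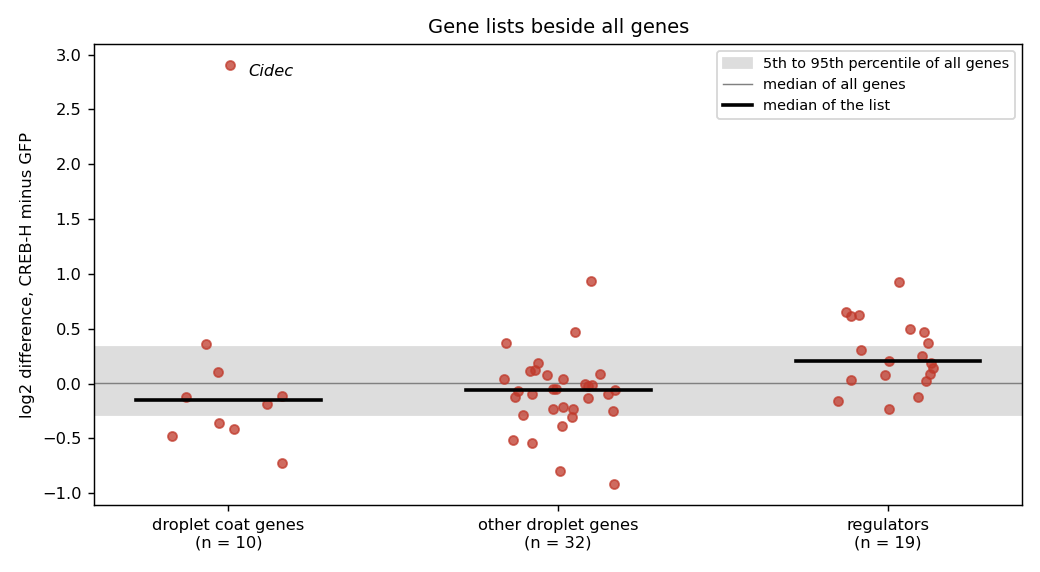
Log2 difference of CREB-H minus GFP for each gene of the droplet coat list, of the other droplet genes and of the regulators, with list medians as black bars at -0.15, -0.06 and 0.21 and the 5th to 95th percentile of all genes in grey. Cidec, at 2.91, lies far above every other gene of the 3 lists.

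Because Cidec, Plin1 and Plin4 are abundant in adipocytes, markers of other cell types were read beside them. Of 6 measured white adipocyte markers 5 had a higher mean with CREB-H, and limma passed none (1 at an unadjusted p below 0.05). Their mean log2 level was 5.64 to 5.89 on CREB-H arrays and 5.47 to 5.67 on GFP arrays. The groups did not overlap in 2 of the 6, both higher with CREB-H, beside the 6.25% of all genes. These were Lep, which encodes leptin, at 4.38, 4.83 and 4.31 with CREB-H, against 4.13, 4.15 and 4.002 with GFP (log2 difference 0.42, SE 0.16), and Retn, which encodes resistin (0.19, SE 0.11). The gap between the groups was 0.16 for Lep and 0.01 for Retn. Lep lay below the array medians of 4.98 to 5.01 on all 6 arrays, and Retn, at 5.24 to 5.62, was not far above them. Adipoq, the adipocyte hormone adiponectin, was the single marker with a lower mean (-0.03, SE 0.17). It read 4.20, 4.002 and 3.98 with CREB-H, against 4.38, 4.13 and 3.76 with GFP, also below the array medians on all 6 arrays. Fabp4 differed by 0.03 (SE 0.26), Lipe by 0.13 (SE 0.12) and Lpl by 0.40 (SE 0.34). Muscle markers, read beside Fitm1, averaged 4.71 to 4.72 on CREB-H arrays and 4.69 to 4.84 on GFP arrays, with 3 of 6 higher. Brown adipocyte markers, read beside Cidea, averaged 5.01 to 5.90 on CREB-H arrays and 5.40 to 6.09 on GFP arrays, with 3 of 5 higher. Elovl3, a fatty acid elongase, carried the width of these ranges, at 6.74, 7.11 and 10.93 with CREB-H, against 9.56, 8.68 and 12.19 with GFP. It was highest on replicate 3 of both groups and differed by -1.88 (SE 1.31), while the other 4 brown adipocyte markers differed by -0.01 to 0.12. The markers in this paragraph were singled out after their values were seen. All 6 macrophage markers had a higher mean with CREB-H, none passing limma even at an unadjusted p below 0.05. In 1 of them (Cd68) the groups did not overlap, with a gap of 0.02. Macrophage markers averaged 8.23 to 9.07 on CREB-H arrays, against 7.66 to 8.87 with GFP. Stellate cell markers averaged 7.48 to 8.03 on CREB-H arrays and 7.60 to 7.77 on GFP arrays, with 5 of 6 higher, and hepatocyte markers 11.94 to 12.11 on CREB-H arrays and 11.89 to 12.10 on GFP arrays. The part of macrophage, stellate and adipocyte RNA in the member values was not tested.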

How the data were processed

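Liver RNA of 6 mice was measured on 1 array each. The authors deposited 1 log2 signal per probe set and array, for which the submitters' processing notes name the Transcriptome Analysis Console. The sources used here do not state its version, probe summarisation or normalization, and the scale was read from the range of the values. No background or detection data were used, so differences of dim genes may be understated, and the number of arrays limits precision.

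Genes were named by the platform annotation in GEO. The Entrez IDs of all 10 members were found in the RefSeq table of GRCm38.p6 with the same symbols. The value table names no build, so coordinates are given only for RefSeq promoter sequences.

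All 41345 probe sets entered 1 fit with limma (version 3.58.1, R 4.3.3; lmFit, eBayes, group as the single term). Two-sided p-values were adjusted by Benjamini and Hochberg's method over every probe set, with 0.05 as the threshold. Single values had exact permutation tests over the 6 arrays. Intervals use the moderated degrees of freedom (6.83). The fit was tested on simulated data, with 50 changed probe sets of each size. At the same threshold it recovered 4% of changes of 0.5 log2 units and 42% of changes of 1. It recovered 80% of changes of 2 and 98% of changes of 4, and called 5 of 41145 unchanged probe sets. The changes were put in brighter probe sets only, and many true changes ease the adjusted threshold. These shares can thus overstate recovery in the real data, where Cidec did not pass at a difference of 2.91. A change of the size seen in most members could therefore be missed. The members, lists and tests were chosen with earlier results of these data known. Named were the members, Creb3l3, 12 other genes fixed by name (Cideb was not measured alone) and the 5 genes nearest to Cidec and to Plin2. Predicted genes and receptor or immunoglobulin gene families were left out of that search. The alternatives were quantile normalization, median centring, filters on dim probe sets, limma-trend, array weights, a replicate block, leaving out each array, 1 probe set per gene, a term for Y-linked signal and the 4 arrays without it. Figures used matplotlib 3.10.9 (Python 3.11.15).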

Additional observations from a re-analysis of the deposited data

How the results depend on the processing

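None of the 10 members passed under any of the alternatives run, where the lowest adjusted p was 0.274 (Cidec without CREB-H replicate 2). The difference of Cidec stayed between 2.11 (the 4 arrays without Y-linked signal) and 3.63, and that of Plin2 between -0.96 and -0.42. Over all alternatives 7 members kept their sign. The other 3 turned in 5 fits, all with 1 array left out: leave-one-out values ran from -0.95 to 0.11 for Plin4, from -0.60 to 0.15 for Plin5 and from -0.24 to 0.47 for Fitm1, and the cause was not tested. Plin4 was 0.11 and Plin5 0.15 without GFP replicate 1, Plin5 was 0.01 and Fitm1 -0.08 without CREB-H replicate 3, and Fitm1 was -0.24 without GFP replicate 2. Cidea is among the dimmest 25% of probe sets and has no value under either filter. The count of probe sets that passed was 2, and it was 3 with 1 probe set per gene in the fit. It became 0 on the 4 arrays without Y-linked signal and 1 with a term for that signal, and ran from 0 to 2 with 1 array left out. At an unadjusted p below 0.05 it was 2850, and 2 members passed. The median of the other droplet genes ran from -0.10 to -0.042 and that of the regulators from 0.12 to 0.36 with 1 array left out. With the replicate number as a block, no probe set passed (0 in place of 2). The numbers were not taken as pairs, since deviations of same-numbered arrays correlated at 0.08, 0.13 and 0.33 and 3 of 6 arrays correlated best with their own number. The median log2 difference of all probe sets was -0.015, against 0.005 after quantile normalization and 0.003 after centring.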
